A study of Mus musculus with 36 samples.

Results

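Oxidative phosphorylation is carried out by 5 protein complexes of the inner mitochondrial membrane, and the nuclear genes that encode their subunits, together with the complex I assembly factors named Ndufaf, were followed through mouse livers that differed in a YAP transgene and in Tet1. The genes were taken by symbol: every gene whose name begins with Nduf, Uqcr, Cox4 to Cox8 or Atp5, and the genes Sdha, Sdhb, Sdhc and Sdhd. The rule found 89 of the 18591 genes in the table. By complex these were 36 genes of complex I, 4 of complex II, 8 of complex III, 17 of complex IV and 17 of complex V, with 7 Ndufaf genes. Ndufa4 and Ndufa4l2 were placed with complex IV, because the Ndufa4 protein is a subunit of cytochrome c oxidase in spite of its name. Atp5s and Atp5sl were counted with complex V by name and not by function.

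The RNA-seq libraries came from livers of C57BL/6 mice, in 4 groups with 3 libraries each. The groups were decitabine-treated Tet1 KO YAP Tg mice (Tet1 -/- with the YAP transgene, given 0.5 mg/kg decitabine into the peritoneum each day for 10 days, from 1 month of age), Tet1 KO YAP Tg mice (Tet1 -/- with the transgene and no decitabine), YAP Tg mice (the transgene alone) and wild-type controls. Every group, controls included, drank water with 50 mg/L doxycycline, which switches the transgene on. YAP is the transcriptional co-activator restrained by the Hippo pathway, TET1 is an enzyme that oxidises 5-methylcytosine, and decitabine traps DNA methyltransferases. The labels name neither the promoter that drives the transgene nor its species, nor the deleted part of Tet1, nor the ages of the groups without decitabine. They do not say whether libraries of a group are separate animals, so p-values measure the spread between these libraries, which may be technical. Another 24 of the 36 samples are of other assays and are not analysed here.

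Electrons enter the respiratory chain at complex I (from NADH) and complex II (succinate dehydrogenase, which is also an enzyme of the tricarboxylic acid cycle). Ubiquinone carries them to complex III and cytochrome c to complex IV, where oxygen is reduced, and complex V makes ATP from the proton gradient that complexes I, III and IV build. All subunits of complex II are nuclear, while the other complexes combine nuclear subunits with a few made from mitochondrial DNA. Hepatocytes are rich in mitochondria, and their urea cycle, gluconeogenesis and fatty acid oxidation depend on this chain. The 13 protein genes of mitochondrial DNA were not analysed here.

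The promoters of 7 genes named in the results are shown. Transcription factors of the respiratory chain are known to bind close to the start sites of such genes. The 150 bases before each start site were taken from RefSeq (GRCm38.p6, the mm10 assembly) and are written 5′ to 3′ on the strand of the gene. Sdha had the largest fall among subunits in YAP Tg, Cox7a2 the largest rise in Tet1 KO YAP Tg, and Atp5s moved against the others. Sdhd, Ndufaf4, Atp5k and Atp5g3 are shown because they hold a motif, which stands in capitals: GABPA in Sdhd, NRF1 in Ndufaf4 and Atp5k, and ERRalpha in Atp5g3. The capitals of Sdhd and Atp5g3 are the reverse complement of the motif as spelled after the sequences.
Sdha, chr13:74350241-74350390, minus strand: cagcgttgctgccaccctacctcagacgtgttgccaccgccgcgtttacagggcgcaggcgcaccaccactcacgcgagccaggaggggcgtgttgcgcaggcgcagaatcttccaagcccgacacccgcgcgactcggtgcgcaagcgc
Sdhd, chr9:50603850-50603999, minus strand: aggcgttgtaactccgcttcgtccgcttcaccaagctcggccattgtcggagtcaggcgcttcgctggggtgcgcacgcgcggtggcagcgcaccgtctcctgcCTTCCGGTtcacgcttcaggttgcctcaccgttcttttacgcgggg
Cox7a2, chr9:79759854-79760003, minus strand: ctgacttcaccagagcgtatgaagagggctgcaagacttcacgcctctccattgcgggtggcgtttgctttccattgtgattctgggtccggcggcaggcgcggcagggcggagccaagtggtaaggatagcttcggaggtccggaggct
Ndufaf4, chr4:24897933-24898082, plus strand: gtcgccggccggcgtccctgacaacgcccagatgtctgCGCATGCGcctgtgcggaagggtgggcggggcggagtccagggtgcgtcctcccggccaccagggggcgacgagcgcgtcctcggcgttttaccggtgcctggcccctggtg
Atp5k, chr5:108434400-108434549, minus strand: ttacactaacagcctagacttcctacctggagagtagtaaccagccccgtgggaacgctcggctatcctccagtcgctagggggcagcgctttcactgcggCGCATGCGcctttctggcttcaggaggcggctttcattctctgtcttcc
Atp5g3, chr2:73911327-73911476, minus strand: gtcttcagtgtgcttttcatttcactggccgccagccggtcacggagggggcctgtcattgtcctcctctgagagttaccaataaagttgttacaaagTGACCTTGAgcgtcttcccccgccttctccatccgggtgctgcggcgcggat
Atp5s, chr12:69724795-69724944, plus strand: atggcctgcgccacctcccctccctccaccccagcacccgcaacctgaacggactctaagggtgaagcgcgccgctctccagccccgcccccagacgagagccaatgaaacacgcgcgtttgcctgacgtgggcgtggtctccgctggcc

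Promoter windows from 250 bases before to 50 after the start were matched for 74 of the 89 genes and for 27025 genes in all, and 5 motifs were searched on both strands. NRF1 (nuclear respiratory factor 1, CGCATGCG) was found in 11 of the 74 genes, or 14.9%, against 2.07% of all genes. GABPA (also called NRF2 in older work, ACCGGAAG) was in 7 genes (9.46%, against 2.6%), YY1 (AANATGGCG) in 11 (14.9%, against 2.76%) and ERRalpha (the estrogen-related receptor, TCAAGGTCA) in 2 (2.7%, against 0.466%). The TEAD motif (ACATTCC), to which the partners of YAP bind, was in 2 genes, Atp5d and Cox5a (2.7%, against 4.47%). Each motif was counted without regard to overlap with another. A match is a run of letters and not a bound site. Motifs also lay in genes not called in YAP Tg over control (calls are defined below). These were NRF1 in Ndufa11, Ndufaf5 and Atp5g2, YY1 in Ndufa7 and GABPA in Atp5e. Whether a motif bears on the changes was not tested. No motif of the 5 was found in the printed stretch of Sdha, Cox7a2 or Atp5s.

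The levels below are the authors' normalised reads, which are reads scaled by library size and by TMM factors and not divided by gene length, so they compare 1 gene between libraries. Tet1 itself had 1.25, 0.954 and 0.587 normalised reads in Tet1 KO YAP Tg livers, 9.90, 8.59 and 8.97 in YAP Tg livers and 0.935, 0.756 and 0.356 in controls, so its level in the knockout was not told apart from that in controls (limma, adjusted p = 0.32). Yap1 averaged 51.1 ± 2.29 in Tet1 KO YAP Tg, 29.9 ± 2.24 in YAP Tg and 54.8 ± 6.70 in controls (SD, n = 3 each), and with the species of the transgene not given this row does not check the transgene. Libraries held between 19082417 and 25067861 reads. Libraries of a group were nearly identical (a coefficient of variation beyond read sampling of 0.00996 to 0.0443 within Tet1 KO YAP Tg, within YAP Tg and between controls 1 and 3), except control 2, which stood apart from both other controls by 0.131 and 0.14. Reads of the ribosomal RNA precursor Rn45s were at most 0.191% of the Tet1 KO YAP Tg and YAP Tg libraries, and 7.82%, 0.148% and 6.44% of controls 1, 2 and 3. Hepatocyte markers (Alb, Ttr, Apoa1, Hnf4a, Asgr1) summed to between 48069 and 122888 normalised reads in all 9 libraries (lowest in Tet1 KO YAP Tg), with none of the 5 at 0.

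Of the 89 genes, 86 passed the filter of at least 0.5 normalised reads in at least 3 of 9 libraries. The other 3 were Cox4i2, Cox6a2 and Cox6b2, isoforms of lung, of heart and skeletal muscle, and of testis, with 4, 18 and 42 reads over the 9 libraries. Cox8b and Cox8c, the muscle and testis isoforms of Cox8a, were not analysed here.

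Summed over the 89 genes, the levels were 11514, 11441 and 11377 normalised reads in Tet1 KO YAP Tg, 6571, 6601 and 6502 in YAP Tg, and 10103, 10846 and 10233 in controls. The YAP Tg livers were thus the lowest, with no overlap with either other group, and every Tet1 KO YAP Tg library was above every control. As a share of all reads, without TMM scaling, the genes took 1.13%, 1.13% and 1.12% in Tet1 KO YAP Tg, 0.776%, 0.776% and 0.76% in YAP Tg and 0.865%, 0.973% and 0.864% in controls. In bulk RNA, fewer cells of a type and less RNA per cell cannot be told apart.

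**Figure D1:**
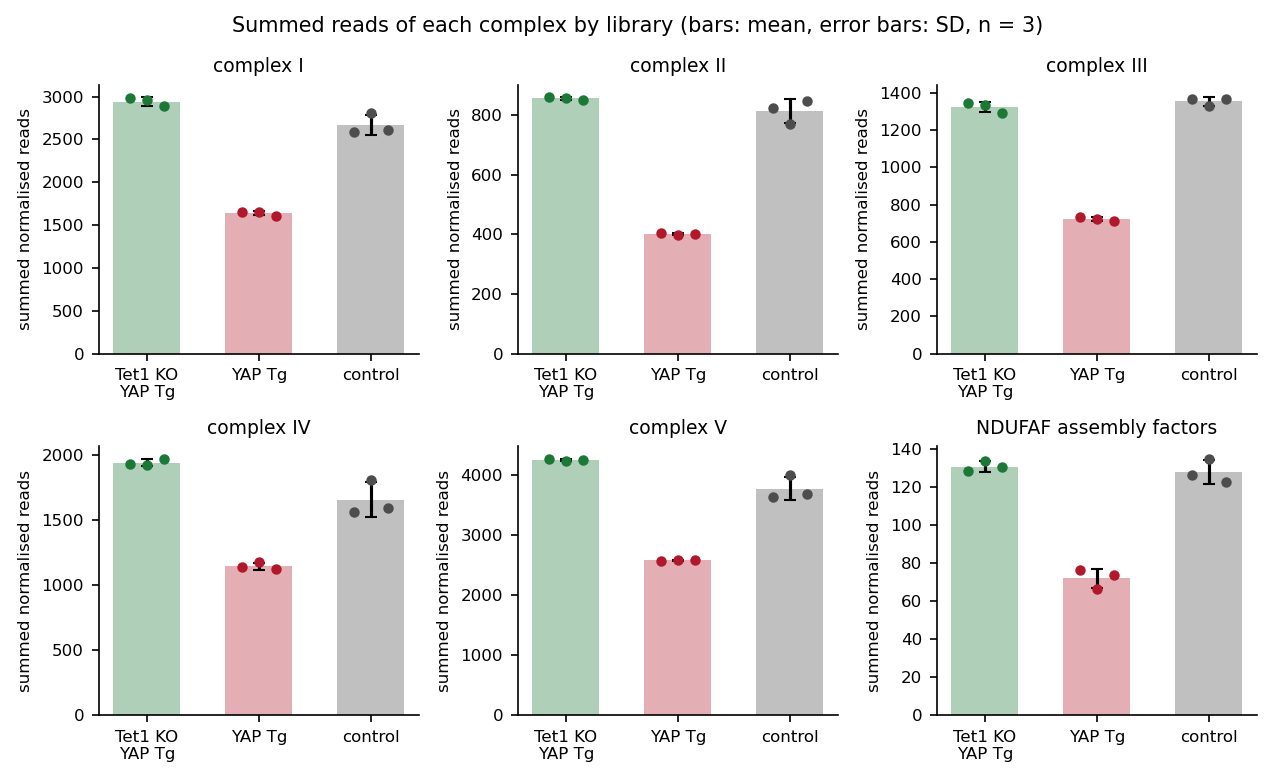
Summed normalised reads (y axis, from 0) of the genes of each complex and of the Ndufaf factors in Tet1 KO YAP Tg, YAP Tg and control libraries; points are libraries, bars the mean and error bars the SD (n = 3). In every panel the 3 YAP Tg libraries lie below all 6 others; for complex II they are at 397 to 405, against 771 to 848 in controls.

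YAP Tg livers were first set beside controls, which shows how the respiratory chain genes stood with the transgene on. In YAP Tg, 74 of the 86 tested genes were lower, 2 were higher and 10 were not called. Over all 13730 genes tested, 34.5% were called lower and 36.1% higher, so this comparison moved most genes in one direction or the other, and the respiratory chain genes almost all in one. Their median log2 fold change was -0.66, against 0.01 over all genes, and their quartiles were -0.83 and -0.39, against -0.43 and 0.55 for all genes. Calls are at an adjusted p below 0.05 (limma, Benjamini-Hochberg over all genes tested).

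All 4 subunits of complex II fell. Sdha, the flavoprotein that oxidises succinate, had 184, 182 and 192 normalised reads in YAP Tg livers, against 537, 402 and 540 in controls (log2 -1.39, SE 0.0941, adjusted p = 7.3e-08 by limma). It lies on chromosome 13, 74322255 to 74350240, minus strand. Control 2 was the lowest control, and the groups did not overlap. Sdhb, the iron-sulfur subunit, averaged 82.1 ± 2.78 against 124 ± 13.6 (SD, n = 3 each; log2 -0.58). The membrane anchors Sdhc and Sdhd fell by 0.22 and 0.86 on the log2 scale, so within a complex of 4 proteins the falls ranged widely.

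In complex I, 32 of 36 genes fell and none rose, with a median of -0.70. The 7 core subunits, which carry the flavin and iron-sulfur clusters and are shared with bacteria, all fell, by between 0.45 (Ndufs7) and 0.83 (Ndufs8). Ndufs1, the large iron-sulfur subunit, had 101, 97.3 and 106 normalised reads in YAP Tg livers, against 175, 177 and 174 in controls (log2 -0.79, SE 0.048, adjusted p = 2.88e-08 by limma). Controls varied by little here and no library of one group reached the other. Ndufv1, which binds NADH, averaged 55.5 ± 2.05 against 91.0 ± 9.12 (SD, n = 3 each), and its flavin-side partner Ndufv2 averaged 67.1 ± 2.00 against 104 ± 5.46. Ndufs3 (-0.71) and Ndufs8, on the path of electrons to ubiquinone, were both called lower, and both had a control 2 above the other controls.

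Of the 29 accessory subunits of complex I, 25 fell, and Ndufa2, Ndufa7, Ndufa11 and Ndufa13 were not called. Ndufs5 had the largest fall of complex I: 28.7, 27.5 and 27.9 normalised reads in YAP Tg livers, against 80.0, 47.5 and 73.4 in controls (log2 -1.21, SE 0.149, adjusted p = 1.58e-05 by limma). The spread among its controls was wide, with control 2 the lowest, yet the groups did not overlap. Ndufb9, a membrane arm subunit, followed at 81.4, 83.3 and 74.3 in YAP Tg livers, against 165, 184 and 172 in controls (log2 -1.12, SE 0.0582). Ndufa13, also known as Grim19, had 138, 136 and 122 in YAP Tg livers, against 119, 158 and 132 in controls, and these overlapped (log2 -0.04, adjusted p = 0.721 by limma). Ndufa7 was likewise level at 36.7 ± 3.36 against 37.2 ± 10.8 (SD, n = 3 each).

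All 8 genes of complex III fell, with a median of -0.86, the lowest of the complexes. Uqcrb, the ubiquinone-binding subunit, had 158, 165 and 170 normalised reads in YAP Tg livers, against 390, 292 and 387 in controls (log2 -1.10, SE 0.0925, adjusted p = 5.15e-07 by limma). The core protein Uqcrc2 averaged 173 ± 4.42 against 327 ± 9.45, and Uqcrc1 99.1 ± 7.60 against 173 ± 5.04 (SD, n = 3 each). Uqcrfs1, the Rieske iron-sulfur protein, fell by 0.66 on the log2 scale, and the small subunit Uqcrq by 1.01.

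In complex IV, 11 of 14 tested genes fell, 1 rose and 2 were not called. Cox6c fell most, with 152, 156 and 164 normalised reads in YAP Tg livers, against 326, 318 and 314 in controls (log2 -1.02, SE 0.0462, adjusted p = 2.04e-09 by limma). Cox4i1, the ubiquitous isoform of the regulatory subunit 4, averaged 141 ± 5.34 against 196 ± 23.2 (SD, n = 3 each), and Cox6b1 averaged 130 ± 1.21 against 188 ± 21.5. Cox6a1 (-0.67) and Cox8a (-0.48) fell too, the liver forms of subunits that also have muscle isoforms. Ndufa4 averaged 162 ± 2.31 against 178 ± 23.8 and was not called (log2 -0.13, adjusted p = 0.159 by limma). Its paralogue Ndufa4l2, which is induced by low oxygen in other tissues, was rare, with 0.18, 0.447 and 0.255 in YAP Tg livers, against 1.05, 0.712 and 1.07 in controls, and fell (log2 -0.87, SE 0.226).

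The Cox7a genes went 3 ways. Cox7a1, the isoform of heart and skeletal muscle, was near the filter at 1.37, 1.75 and 1.42 normalised reads in YAP Tg livers, against 1.11, 1.16 and 0.653 in controls, and rose (log2 0.46, SE 0.17, adjusted p = 0.0282 by limma). Its call ended without YAP Tg 2, YAP Tg 3 or control 3 (adjusted p = 0.108, 0.0504 and 0.115 by limma). The muscle markers Myh1, Ckm and Actc1 summed to between 0.0365 and 0.378 in YAP Tg and between 0 and 0.0594 in controls, and their part in this rise was not tested. Cox7a2, the isoform of liver, fell by 0.22 on the log2 scale (38.5, 39.4 and 37.6 in YAP Tg livers, against 43.6, 49.7 and 41.4 in controls). That fall was not called without YAP Tg 3 (adjusted p = 0.0527 by limma). Cox7a2l, a supercomplex assembly factor that C57BL/6 mice carry in a shortened form, was level, with 130, 133 and 128 in YAP Tg livers, against 129, 126 and 128 in controls (log2 0.03, SE 0.0459, adjusted p = 0.638 by limma).

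In complex V, 14 of 17 genes fell, 1 rose and 2 were not called, with a median of -0.58. Atp5a1 and Atp5b encode the alpha and beta subunits of the catalytic head. Atp5a1 had 650, 644 and 672 normalised reads in YAP Tg livers, against 1073, 1066 and 1072 in controls (log2 -0.71, SE 0.0427, adjusted p = 2.61e-08 by limma). Atp5b had 718, 734 and 717 in YAP Tg livers, against 821, 1007 and 845 in controls (log2 -0.30, SE 0.0704, adjusted p = 0.00257 by limma). Both were lower in every YAP Tg library than in any control, with the smaller difference for the beta subunit. Atp5h, Atp5j and Atp5f1, subunits of the peripheral stalk, fell by 0.76, 0.74 and 0.73 on the log2 scale, whereas Atp5o, which joins that stalk to the head, fell by 0.31.

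The c ring of complex V is made from 3 genes that encode the same mature protein. Atp5g3 averaged 75.3 ± 4.18 in YAP Tg livers and 128 ± 11.4 in controls (log2 -0.76), and Atp5g1 averaged 46.2 ± 2.45 and 79.3 ± 28.3 (log2 -0.72; SD, n = 3 each). Atp5g2 differed from both: it had 59.5, 58.9 and 54.7 in YAP Tg livers, against 44.2, 66.0 and 48.8 in controls, and was not called (log2 0.14, adjusted p = 0.291 by limma). Without control 2, Atp5g2 was called higher in YAP Tg (log2 0.31, adjusted p = 4.13e-05 by limma). That fit takes its control spread from controls 1 and 3, which were nearly identical.

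Atp5s was the one gene of the set with a clear rise. It had 6.44, 6.84 and 7.40 normalised reads in YAP Tg livers, against 3.33, 4.27 and 4.04 in controls (log2 0.76, SE 0.12, adjusted p = 0.000122 by limma), with no overlap. The gene lies on chromosome 12, 69724962 to 69744658, plus strand. It encodes coupling factor B, which binds ATP synthase without being one of its core subunits, and is named Dmac2l in current annotation. Its relative Atp5sl, now Dmac2, which takes part in building the membrane arm of complex I, fell by 0.46.

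Of the 7 Ndufaf factors, 5 fell. Ndufaf6, an assembly factor of the membrane-embedded part of complex I, had the largest fall of all 86 genes: 5.54, 4.57 and 4.59 normalised reads in YAP Tg livers, against 14.4, 14.5 and 16.3 in controls (log2 -1.53, SE 0.108, adjusted p = 1.04e-07 by limma). Ndufaf4 had 21.5, 16.5 and 19.2 in YAP Tg livers, against 41.2, 39.3 and 36.0 in controls (log2 -1.01), and Ndufaf1 averaged 18.9 ± 0.787 against 34.2 ± 5.72 (SD, n = 3 each). Ndufaf5 (log2 -0.13) and Ndufaf7 (-0.16) were not called, and Ndufaf3 was called by a small margin (log2 -0.29, adjusted p = 0.0449 by limma). The Ndufaf3 call ended in 7 of the 9 fits without 1 library.

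**Figure D2:**
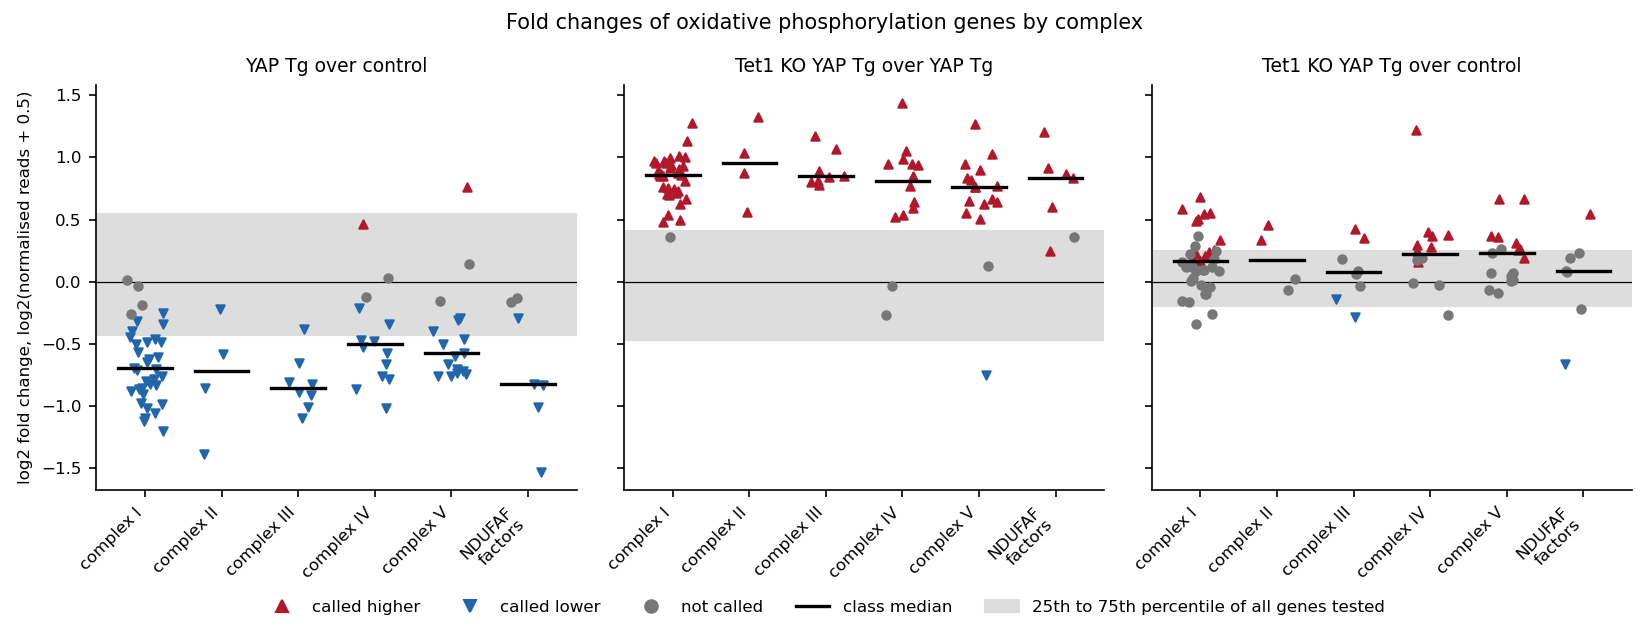
Log2 fold changes (y axis, on the log2(normalised reads + 0.5) scale) of the 86 tested genes by class for YAP Tg over control, Tet1 KO YAP Tg over YAP Tg, and Tet1 KO YAP Tg over control; triangles are called genes, grey points are not called, black lines are class medians and grey bands the range between the quartiles of all 13730 genes. In YAP Tg over control 62 genes lie under the band; in Tet1 KO YAP Tg over YAP Tg 79 lie over it; scaled by library totals without TMM factors, 24 genes instead of 5 are above 0 in YAP Tg over control.

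The size of these falls, and for some genes their direction, depended on the scaling. With library totals alone and no TMM factors, the median of all 13730 genes was itself at 0.41 in YAP Tg over control, 44 genes of the set were called lower and 10 higher, and Sdhc, Cox7a2, Atp5b and Uqcr10 were among those that changed sign. Across fits without 1 library 69 of the 74 falls held in all 9, the others being Sdhc, Cox7a2, Ndufs7, Ndufaf3 and Ndufc1. Relative to the median of all genes, the median of the set was -0.64 without TMM factors and -0.67 on the deposited scale. On both, 81 of 86 genes were below that median. A change of scaling moves all genes of a library by nearly the same amount. These relative values could therefore hardly differ, and they are no test of the falls. When near-identical libraries were added together, which leaves 1 YAP Tg library and takes all spread from the controls, 43 of the 74 falls and neither rise were called.

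Other genes of energy metabolism that the name rule does not take were read from lists. Beside each list stand the shares of all genes tested, 34.5% lower and 36.1% higher. Of 38 other assembly factors, 29 were lower in YAP Tg and none higher, with a median of -0.38. Lrpprc, which stabilises mitochondrial mRNAs, was at 57.5 against 171 normalised reads (log2 -1.56), and Sco2, a copper chaperone of complex IV, at 12.8 against 30.1. Of 16 tested electron carriers and coenzyme Q genes, 12 fell, among them cytochrome c (Cycs, 129 against 295.5 normalised reads), and Coq6 rose. Of 18 genes of the tricarboxylic acid cycle, 15 fell, among them fumarase (Fh1, log2 -1.49). The mitochondrial isocitrate dehydrogenase Idh2 (log2 2.03) and pyruvate carboxylase (Pcx, 0.86) rose.

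The list of regulators of mitochondrial genes was mixed, with 13 of 20 lower and 3 higher. Ppargc1a, the co-activator that drives mitochondrial biogenesis, averaged 25.9 against 31.0 normalised reads and was not called (log2 -0.19, adjusted p = 0.423 by limma), and Nrf1 was not called either (-0.05). The co-activator Ppargc1b (-1.15), the receptors Esrrg (-2.72) and Ppara (-1.43) and the mitochondrial transcription factor Tfam (-0.70) fell, while Myc (1.61) and Nfe2l2 (1.08) rose. Of the factors whose motifs are named above, Gabpa (-0.65) and Yy1 (-0.52) were also lower and Esrra (0.43) was higher. Among inhibitors and uncouplers, 4 of 9 rose and 4 fell. Atpif1, the inhibitor protein of ATP synthase, had 51.4 against 28.6 normalised reads (log2 0.83), Ucp2, an uncoupling protein relative found in macrophages, 34.3 against 11.7 (log2 1.52), and Slc25a4, the ADP/ATP carrier of heart and muscle, 67.7 against 6.47 (log2 3.30). Of 20 glycolysis genes, 8 rose and 8 fell, beside 36.1% and 34.5% of all genes tested. The muscle-type isoenzyme gene Pkm rose (log2 1.63) and the liver isoenzyme Pklr fell (log2 -2.01).

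Markers of cell types also differed between YAP Tg and controls, some higher and some lower. All 5 macrophage markers (Adgre1 under its older name Emr1, Cd68, Csf1r, Clec4f, Lyz2) were called higher, summing to 1307 to 1330 normalised reads in YAP Tg and 257 to 344 in controls. All 3 neutrophil markers in the table were higher (sums 16.6 to 18.3, against 0.178 to 0.578, with Mpo at 0 in all 3 controls). Of the hepatocyte markers, Ttr, Hnf4a and Asgr1 were lower, and Alb and Apoa1 were not called. The erythroid markers Alas2 (8.70 ± 0.501 in YAP Tg, against 114 ± 12.3 in controls) and Hbb-bt (5.42 ± 0.743, against 18.7 ± 7.22; SD, n = 3 each) were lower, and 3 of 4 endothelial markers were higher (408 to 418, against 351 to 361). Of 4 cholangiocyte markers, Sox9 (log2 1.38) and Epcam (0.45, with overlapping groups) were higher. Krt7 (-0.21) and Krt19 (-0.35) were not called. The 4 summed to 12.8 to 14.3 in YAP Tg and 5.12 to 7.72 in controls, mostly Sox9 in YAP Tg (mean 10.4, against 3.72 in controls). The lymphocyte marker Cd79a (0.63) was higher. Of 4 fibroblast and stellate markers, Lrat (log2 -1.64) and Dcn (-0.36) were lower and Col1a1 (0.85) was higher. The part of these cells in the falls was not tested.

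The comparison of Tet1 KO YAP Tg with YAP Tg livers shows how the genes stood in transgenic livers that by their labels lack Tet1. In Tet1 KO YAP Tg, 80 of 86 genes were higher, 1 was lower and 5 were not called. Over all genes tested, 33.4% were called higher and 34.0% lower. The median log2 fold change of the set was 0.84, against 0.00 over all genes, with quartiles of 0.66 and 0.94. This comparison and the one above share the YAP Tg libraries, so a low YAP Tg level enters both.

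Complex II rose in all 4 genes, led by Sdha with 456, 465 and 481 normalised reads in Tet1 KO YAP Tg livers, against 184, 182 and 192 in YAP Tg livers (log2 1.33, SE 0.0941, adjusted p = 1.32e-07 by limma). Sdhb had 177, 168 and 162, against 84.0, 83.5 and 78.9 in YAP Tg livers (log2 1.04). Sdhd rose by 0.88 and Sdhc by 0.56. The summed level of complex II was 2.13 times that in YAP Tg, the largest ratio of the 6 classes, and that of complex V was 1.65 times, the smallest. The complex II ratio leans on Sdha, which held 467 of 856 mean summed reads in Tet1 KO YAP Tg and 186 of 401 in YAP Tg.

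In complex I, 35 of 36 genes rose, with a median of 0.86. Ndufb9 rose most, with 194, 196 and 191 normalised reads in Tet1 KO YAP Tg livers, against 81.4, 83.3 and 74.3 in YAP Tg livers (log2 1.28, SE 0.0582, adjusted p = 2.63e-09 by limma). Ndufb3, another membrane arm subunit, followed with 84.2 ± 2.92 against 38.1 ± 2.37 (SD, n = 3 each; log2 1.13). The 7 core subunits rose by 0.71 (Ndufv2) to 1.01 (Ndufs8). Ndufa7 was the exception, with 47.1 ± 2.66 against 36.7 ± 3.36 (log2 0.36, adjusted p = 0.0544 by limma), and its libraries did not overlap either.

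All 8 genes of complex III rose, within the narrow range of 0.77 (Uqcrc2) to 1.17 (Uqcr11) on the log2 scale. Uqcr11, a small subunit, had 143, 148 and 123 normalised reads in Tet1 KO YAP Tg livers, against 65.5, 63.4 and 53.4 in YAP Tg livers. Uqcrq (1.07), Uqcrc1 (0.89), Uqcrfs1 (0.84) and Uqcrb (0.81) rose as well.

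Complex IV held the largest rise of the whole set. Cox7a2 had 99.7, 108 and 109 normalised reads in Tet1 KO YAP Tg livers, against 38.5, 39.4 and 37.6 in YAP Tg livers (log2 1.44, SE 0.0702, adjusted p = 4.75e-09 by limma). The gene lies on chromosome 9, 79755241 to 79759853, minus strand. Its libraries were tight in both groups and far apart between them. Of the 14 tested genes of the complex, 12 rose, among them Cox5b (1.05) and Cox6c (0.99). Cox7a2l was level, at 123, 131 and 126 against 130, 133 and 128 (log2 -0.04, adjusted p = 0.482 by limma), and Cox7a1 was not called (log2 -0.27, adjusted p = 0.176). The rise of Ndufa4l2 (log2 0.60) was not called in 4 fits without 1 library, those without Tet1 KO YAP Tg 1 or 3 or YAP Tg 1 or 3 (adjusted p = 0.157, 0.0584, 0.121 and 0.0903 by limma), and its groups overlapped.

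In complex V, 15 of 17 genes rose. Atp5k, the subunit e of the membrane part that joins ATP synthase dimers, had 68.9, 65.3 and 64.4 normalised reads in Tet1 KO YAP Tg livers, against 28.0, 26.7 and 26.9 in YAP Tg livers (log2 1.27, SE 0.19, adjusted p = 9.16e-05 by limma). Atp5j2, subunit f, rose by 1.03. Atp5a1 averaged 1223 ± 10.3 against 655 ± 14.8, and Atp5b 1062 ± 34.1 against 723 ± 9.86 (SD, n = 3 each). Atp5g2 again stood apart from Atp5g1 (0.94) and Atp5g3 (0.83), with 61.2, 64.7 and 62.8 against 59.5, 58.9 and 54.7 (log2 0.12, adjusted p = 0.36 by limma). Without control 2, which narrows the pooled spread, the same difference of Atp5g2 was called (adjusted p = 0.028). Atp5s was the only one of the 86 genes called lower, at 3.93, 4.32 and 3.47 against 6.44, 6.84 and 7.40 (log2 -0.75, SE 0.12, adjusted p = 0.000152 by limma).

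Of the Ndufaf factors 6 of 7 rose. Ndufaf4 had 41.5, 47.6 and 44.3 normalised reads in Tet1 KO YAP Tg livers, against 21.5, 16.5 and 19.2 in YAP Tg livers (log2 1.21, SE 0.0947, adjusted p = 3.26e-07 by limma). Ndufaf1 rose by 0.92 and Ndufaf6 by 0.87. Ndufaf5 was at 4.00 ± 0.474 against 2.99 ± 0.281 (SD, n = 3 each) and was not called, though its libraries did not overlap.

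Across fits without 1 library, between 78 and 83 genes were called higher in this comparison. With near-identical libraries added together, 36 of the 80 rises were called, and then no spread within Tet1 KO YAP Tg or YAP Tg was measured. With library totals alone and no TMM factors, where the median of all genes lay at -0.23, 77 genes were called higher and 3 lower.

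**Figure D3:**
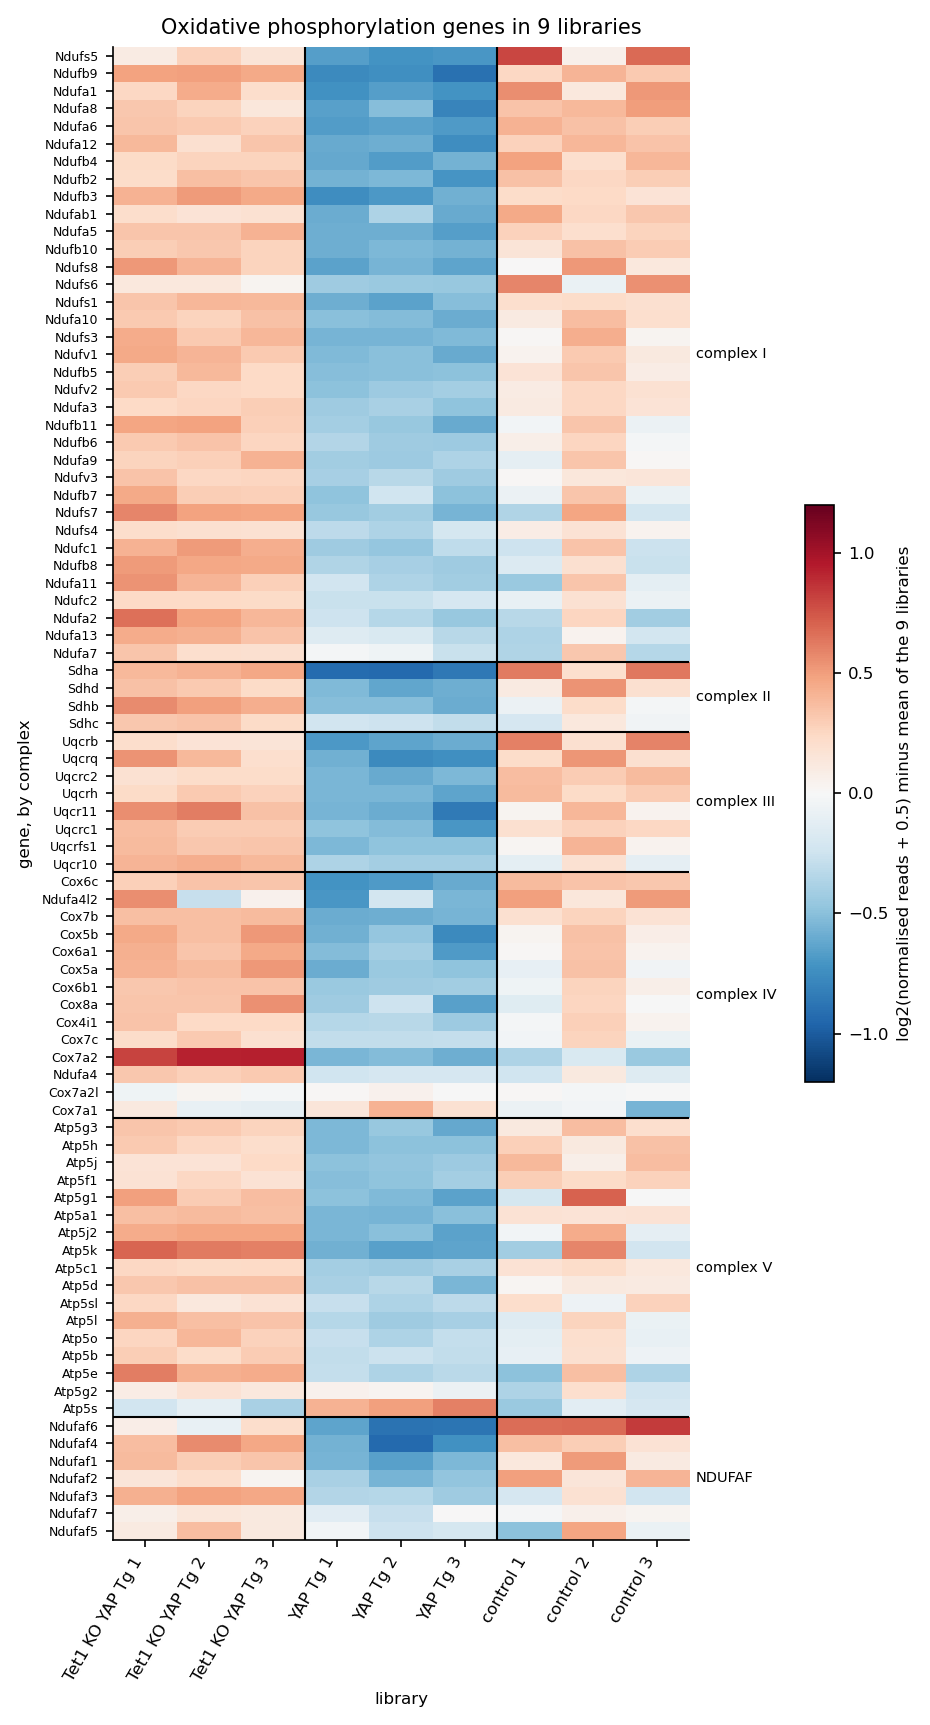
Level of each tested gene but 1, which is not shown (rows, by complex), in the 9 libraries (columns: Tet1 KO YAP Tg, YAP Tg, control) as log2(normalised reads + 0.5) minus the gene's mean over the 9 libraries; red is above and blue below that mean. The YAP Tg columns are blue in nearly every row, Atp5s and Cox7a1 being the called exceptions, and control 2 differs from controls 1 and 3 in many rows.

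The lists outside the name rule were mostly higher too in Tet1 KO YAP Tg than in YAP Tg. Each list, here and in the next paragraph, stands beside 33.4% higher and 34.0% lower over all genes tested. Of the other assembly factors, 33 of 38 rose and none fell, with Sco2 at 44.0 against 12.8 normalised reads (log2 1.75) and Lrpprc at 149 against 57.5 (log2 1.36). Of the electron carrier and coenzyme Q genes, 13 of 16 rose, Cycs by 1.22, and Coq6 fell. Of the tricarboxylic acid cycle, 15 of 18 rose, citrate synthase (Cs) by 0.97, and Idh2 fell by 1.03. Among regulators 11 of 20 rose, including Esrrg (2.61), Ppara (1.53) and Ppargc1b (1.02). The 4 that fell included Nfe2l2, Myc and Nrf1 (-0.28, with overlapping groups). Gabpa (0.17), Yy1 (0.11) and Esrra (0.14) were not called. Ppargc1a was at 29.9 against 25.9 (adjusted p = 0.398 by limma).

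In the list of inhibitors, uncouplers, ADP/ATP carriers and low-oxygen regulators, 5 of 9 genes rose and 3 fell in Tet1 KO YAP Tg. Higd1a, a low-oxygen response gene of complexes III and IV, rose by 1.48 on the log2 scale. Atpif1, Ucp2 and Slc25a4 fell by 1.04, 1.54 and 3.01. Among glycolysis genes 10 of 20 rose and 6 fell, Pklr by 3.22 upwards and Pkm by 1.32 downwards. The erythroid markers Alas2 (log2 3.63) and Hbb-bt (1.29) were higher in Tet1 KO YAP Tg livers than in YAP Tg livers. The 5 macrophage markers were lower and summed to 310 to 322 in Tet1 KO YAP Tg livers, against 1307 to 1330 in YAP Tg livers, and the 3 neutrophil markers summed to 0.492 to 0.681, against 16.6 to 18.3. Hepatocyte markers went both ways, with Alb and Apoa1 lower and Ttr, Hnf4a and Asgr1 higher. Endothelial markers were lower in 3 of 4 (Cdh5, log2 -0.77), as was the lymphocyte marker Cd79a (-0.73). Fibroblast and stellate markers were higher in 3 of 4, Lrat by 1.55 on the log2 scale, with sums of 340 to 345 in Tet1 KO YAP Tg and 237 to 248 in YAP Tg. Of 4 cholangiocyte markers, Krt7 (log2 0.45) and Krt19 (0.84) were higher and Sox9 (-1.33) was lower. The part of these cells in the rises was not tested.

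The comparison of Tet1 KO YAP Tg with control livers sets the knockout beside wild-type livers. In Tet1 KO YAP Tg, 34 of 86 genes were higher, 3 were lower and 49 were not called. Over all genes tested, 20.2% were called higher and 18.8% lower. The median log2 fold change of the set was 0.18, against 0.02 over all genes.

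These counts turned on the controls. Control 2 was over 20% above both other controls in 33 of the 86 genes and over 20% below both in 9. Without control 2, 56 genes were called higher and 12 lower. Fits without control 2, here and for single genes below, take the control spread from controls 1 and 3 alone. Those 2 libraries were nearly identical (0.0242 beyond read sampling) and held 7.82% and 6.44% Rn45s reads, against 0.148% in control 2. Whether that difference bears on the calls was not tested. Without control 1, 17 were called higher and 1 lower, and without control 3, 18 higher and 1 lower. Leaving out 1 Tet1 KO YAP Tg library gave 20 to 23 higher and 1 lower. Of the 34 rises, 16 held in every one of the 9 fits without 1 library, and so did the fall of Ndufaf6 alone among the 3 falls. With near-identical libraries added together, 1 rise and no fall was called.

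That 1 rise was Cox7a2, the largest here as well, with 99.7, 108 and 109 normalised reads in Tet1 KO YAP Tg livers, against 43.6, 49.7 and 41.4 in controls (log2 1.22, SE 0.0702, adjusted p = 1.66e-07 by limma). Every Tet1 KO YAP Tg library was above every control. Its relative Cox7a2l averaged 127 ± 3.94 against 128 ± 1.88 (SD, n = 3 each; log2 -0.01, adjusted p = 0.852 by limma). The other complex IV genes called higher in every fit without 1 library came to Ndufa4 alone, at 236, 230 and 233 against 160, 205 and 169 in controls (log2 0.40, adjusted p = 0.00186 by limma).

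In complex I, 13 of 36 genes were higher and none lower. Ndufa2, an accessory subunit with a thioredoxin-like fold, had 27.9, 24.7 and 23.3 normalised reads in Tet1 KO YAP Tg livers, against 13.8, 21.0 and 12.9 in controls (log2 0.68, SE 0.151, adjusted p = 0.00441 by limma). Ndufa13 had 210, 207 and 196 against 119, 158 and 132 (log2 0.59, adjusted p = 0.000394 by limma). In both genes control 2 lay between the other controls and the knockout libraries. Ndufs5, the gene of complex I with the largest fall in YAP Tg, was at 48.7, 55.3 and 50.7 against 80.0, 47.5 and 73.4 and was not called (log2 -0.34, adjusted p = 0.0925 by limma); without control 2 it was called lower (log2 -0.57, adjusted p = 1.2e-07 by limma).

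In complex II, Sdhb (log2 0.46) and Sdhc (0.34) were higher, while Sdha (-0.06) and Sdhd (0.02) were not called. Sdha had 456, 465 and 481 normalised reads in Tet1 KO YAP Tg livers, against 537, 402 and 540 in controls, so control 2 lay below the knockout libraries and the others above. Without control 2, Sdha was called lower (log2 -0.20, adjusted p = 8.68e-05 by limma) and Sdhd higher (log2 0.15, adjusted p = 0.0141). In complex III, Uqcr10 (0.42) and Uqcr11 (0.35) were higher and Uqcrb (-0.29) and Uqcrc2 (-0.14) lower. The Uqcr11 rise ended without Tet1 KO YAP Tg 1 or 2 or without control 1 or 3 (adjusted p = 0.091, 0.104, 0.0957 and 0.0925 by limma). The falls of Uqcrb and Uqcrc2 ended when control 1, control 3 or any Tet1 KO YAP Tg library was left out (adjusted p from 0.0615 to 0.107 by limma).

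In complex V, 8 of 17 genes were higher. Atp5k had 68.9, 65.3 and 64.4 normalised reads in Tet1 KO YAP Tg livers, against 31.4, 63.3 and 35.7 in controls (log2 0.67, SE 0.19, adjusted p = 0.0163 by limma), where control 2 nearly reached the knockout libraries. The Atp5k call ended without Tet1 KO YAP Tg 1, control 1 or control 3 (adjusted p = 0.0574, 0.0613 and 0.0603 by limma). Atp5e, the epsilon subunit, showed the same control 2, at 32.8, 28.8 and 29.2 against 15.0, 27.4 and 16.3 (log2 0.67, SE 0.172, adjusted p = 0.01 by limma). Atp5a1 was higher by little but evenly, at 1217, 1235 and 1218 against 1073, 1066 and 1072 (log2 0.19, SE 0.0427, adjusted p = 0.00441 by limma). Atp5s was not called, at 3.91 ± 0.425 against 3.88 ± 0.489 (SD, n = 3 each; log2 0.01, adjusted p = 0.955 by limma).

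Ndufaf6 was the largest fall, with 9.43, 8.31 and 10.3 normalised reads in Tet1 KO YAP Tg livers, against 14.4, 14.5 and 16.3 in controls (log2 -0.66, SE 0.108, adjusted p = 0.000593 by limma). It lies on chromosome 4, 11051046 to 11076205, minus strand. Its knockout libraries lay above all of YAP Tg and below all of control. Ndufaf3 was the 1 higher gene among the factors (log2 0.54), and the other 5 were not called.

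**Figure D4:**
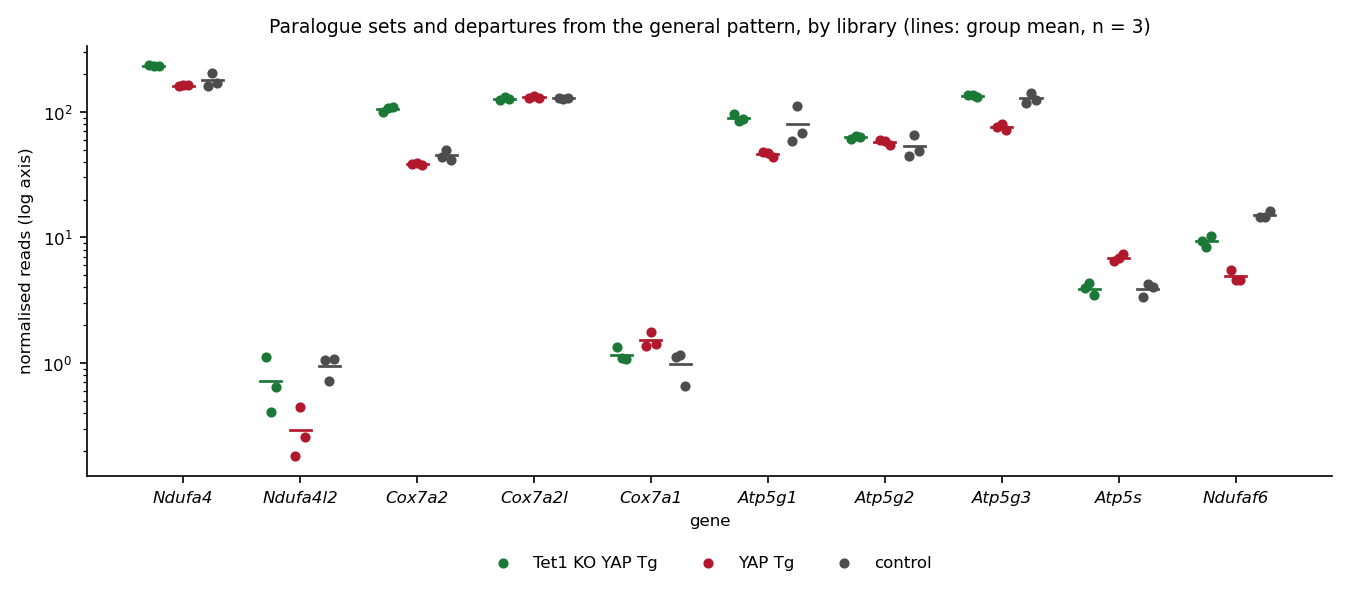
Normalised reads (log axis) of paralogue sets (Ndufa4 with Ndufa4l2, the Cox7a genes, the Atp5g genes) and of Atp5s and Ndufaf6 in Tet1 KO YAP Tg, YAP Tg and control libraries; points are libraries and lines group means (n = 3). Cox7a2 is highest in Tet1 KO YAP Tg at 99.7 to 109, Cox7a2l is level in all 9 libraries, and Atp5s is highest in YAP Tg at 6.44 to 7.40.

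The lists outside the name rule stand beside 20.2% higher and 18.8% lower over all genes tested in Tet1 KO YAP Tg against controls. Of 38 other assembly factors, 9 were higher and 2 lower, and of the tricarboxylic acid cycle 5 were higher and 5 lower of 18. Electron carriers and coenzyme Q genes had 2 higher and 4 lower of 16, and regulators 4 higher and 6 lower of 20. Gabpa (-0.48), Yy1 (-0.40) and Nrf1 (-0.33), whose motifs are named above, were among the lower regulators, and Esrra (0.57), the receptor of the ERRalpha motif, was among the higher. In the list of inhibitors, uncouplers, ADP/ATP carriers and low-oxygen regulators, 3 of 9 genes were higher and 2 lower. Of glycolysis, 10 of 20 were higher, among them Pklr (1.21), and 1 was lower. None of the macrophage or neutrophil markers was called between these groups, nor was Alas2 or Hbb-bt, while the hepatocyte markers Alb, Ttr and Apoa1 were lower in Tet1 KO YAP Tg. Of 4 fibroblast and stellate markers, Col1a1 (log2 1.04) and Pdgfrb (0.53) were higher, and of 4 endothelial markers, Pecam1 (-0.18) and Cdh5 (-0.21) were lower. No cholangiocyte marker was called, nor was Cd79a.

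Levels per gene length could be read only in the decitabine-treated Tet1 KO YAP Tg livers, whose deposited values are in TPM, the reads per length scaled to a common total. No other group is in this unit, so no comparison with it is made. Ndufa4 had the highest level of the 89 genes, at 1788, 1077 and 1265 TPM, followed by Atp5b at 1221, 1073 and 1077 TPM. The next were Cox6b1 (746.5 ± 162 TPM), Cox4i1 (742 ± 25.2 TPM) and Atp5a1 (693 ± 17.6 TPM; SD, n = 3 each). Summed over the 89 genes, the libraries held 24603, 18660 and 19300 TPM, and Atp5k followed that order of a high library 1 at 776, 459 and 581 TPM.

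By class, the median of the mean levels was 362 TPM for the 8 genes of complex III, 309 for complex IV, 285 for complex V, 237 for complex II, 155 for complex I and 17.0 for the Ndufaf factors. The Ndufaf factors, which are needed for assembly and not as parts of the finished complex, lay between 5.32 TPM (Ndufaf5) and 37.8 TPM (Ndufaf1). Among core subunits of complex I, Ndufs1 (101 ± 17.9 TPM), Ndufs3 (68.9 ± 5.19 TPM) and Ndufs7 (85.3 ± 9.76 TPM) stood below that complex's median. Ndufs8 (110.5 TPM), Ndufv1 (138 TPM) and Ndufv2 (122 TPM) did so too. The muscle and testis isoforms were near the bottom, with Cox6a2 at 0.865 ± 0.440 TPM and Cox6b2 at 1.26 ± 0.383 TPM.

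Some subunits that every cell uses were also low in TPM. Atp5g2 had 1.52, 1.47 and 2.46 TPM, Atp5l (subunit g) 1.91, 3.44 and 2.53 TPM, Cox7c 8.23, 6.95 and 7.77 TPM and Ndufab1 (the mitochondrial acyl carrier protein) 11.7, 11.2 and 6.73 TPM. In untreated Tet1 KO YAP Tg livers these 4 genes were at 62.9, 117, 60.1 and 32.1 normalised reads, in a unit that is not divided by length. Ndufs5 had 41.5, 0.267 and 15.3 TPM. Genes of this kind have many processed pseudogenes, and how reads shared with such copies were assigned is not given in the sources used here, so these TPM values are uncertain.

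**Figure D5:**
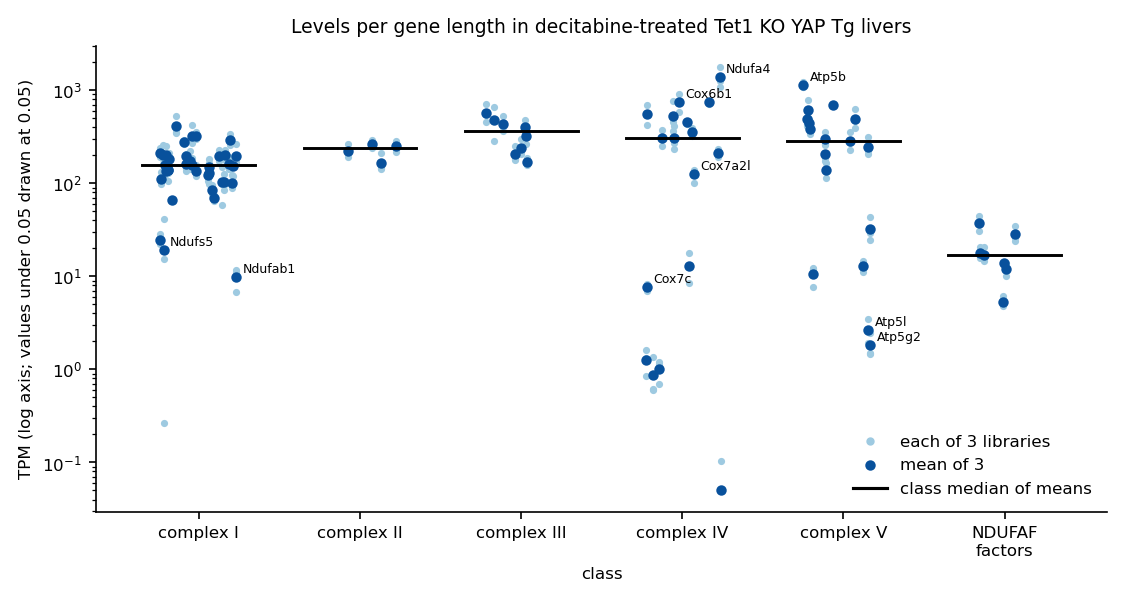
TPM (log axis) of the 89 genes by class in decitabine-treated Tet1 KO YAP Tg livers; pale points are the 3 libraries, dark points their mean and lines the class median of the means, with values under 0.05 drawn at 0.05. Ndufa4 and Atp5b are highest, the Ndufaf factors lie at 5.32 to 37.8 TPM, and Atp5g2, Atp5l, Cox7c and Ndufab1 lie below 12 TPM in every library.

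The authors' deposited table gives log2 fold changes of decitabine-treated over untreated Tet1 KO YAP Tg as well. For the 76 genes of the set at 10 or more in both groups, each was the log2 ratio of mean TPM over mean normalised reads plus 0.07 to 0.11. Such a ratio holds the gene's length as well as any effect of decitabine, which cannot be told apart, so these fold changes are not reported here.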

How the data were processed

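Liver RNA of 12 libraries was measured by RNA-seq (TRIzol total RNA, per the labels' protocols). The submitters' processing notes name TopHat2, featureCounts, edgeR and mm10, with no versions. For 9 libraries the authors deposited normalised reads, a signal scaled by library totals and TMM factors. Dividing by the value of 1 read gave whole reads (within 0.02) for 100% of values below 1000 reads, and 19082417 to 25067861 reads per library. The decitabine-treated libraries were deposited in TPM by the authors. Per the file headers, the authors also deposited log2 fold changes, p-values with their adjusted forms, and a significance score, which give no result here.

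The 9 libraries were fitted together with limma 3.58.1 (R 4.3.3) with a mean-variance trend, on log2(value + 0.5), for the 13730 genes with at least 0.5 in at least 3 libraries, with Benjamini-Hochberg adjustment over all of them and a threshold of 0.05. The fit was also run on simulated data with the same spread in every library. The libraries here differ in spread, so that run does not bear on the calls. Alternatives were edgeR 4.0.16 and DESeq2 1.42.0 on recovered reads, other pseudocounts, filters and scalings, a replicate block, each library left out, and near-identical libraries added together. The members and lists were chosen with earlier results of these data known. The named genes were complex II, the complex I core, Uqcrfs1, Uqcrc1, Uqcrc2, Atp5a1, Atp5b, the paralogue sets, and in each comparison and class the 2 called genes with the largest rise and the 2 with the largest fall. Other members and list genes were chosen for mention after their values were seen. Some items are not reported here.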

Additional observations from a re-analysis of the deposited data

How the results depend on the processing

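How far directions and calls of the 48 named genes held depended on the setting. With a minimum value of 5, only 46 of them were tested. Many calls ended with near-identical libraries added together. Without TMM factors, 29 of the 48 kept their result in YAP Tg over control and 32 in Tet1 KO YAP Tg over control. In Tet1 KO YAP Tg over YAP Tg 45 did. With 1 library left out, calls of Tet1 KO YAP Tg over control changed most. Where a result changed the cause was not tested unless stated. YAP Tg over control: the 2 genes called higher became 1 by DESeq2, 1 with median-centred libraries, 1 with a minimum value of 5, 0 with near-identical libraries added together, 10 without TMM factors, 3 with no filter on low values, and 1 to 4 with 1 library left out. The 74 called lower became 43 with near-identical libraries added together and 44 without TMM factors, and 70 to 76 with 1 library left out. The median of -0.66 became -0.80 with median-centred libraries and -0.23 without TMM factors, and -0.70 to -0.57 with 1 library left out. Tet1 KO YAP Tg over YAP Tg: the 80 called higher became 36 with near-identical libraries added together, and 78 to 83 with 1 library left out. The 1 called lower became 0 with those libraries added together, 2 with no filter and 3 without TMM factors. The median of 0.84 became 0.59 without TMM factors. Tet1 KO YAP Tg over control: the 34 called higher became 1 with near-identical libraries added together and 64 without TMM factors, and 17 to 56 with 1 library left out. The 3 called lower became 0, 1 and 1 to 12 under the same settings. The median of 0.18 became 0.36 without TMM factors.

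Without TMM factors, 24 of 86 genes were above 0 in YAP Tg over control, against 5 with them. Among the 48 named genes, those that changed sign and were called under either scaling went to 0.14 (Atp5b), 0.22 (Cox7a2), 0.40 (Ndufa13), 0.31 (Ndufa4), 0.10 (Ndufaf3), 0.22 (Sdhc) and 0.05 (Uqcr10). Atp5e (0.27) and Ndufa2 (0.24) changed sign and were called under neither. In Tet1 KO YAP Tg over control, 80 genes were above 0 without TMM factors and 67 with them. Among the named genes Cox6c (0.15), Cox7a2l (0.17) and Uqcrc2 (0.04) changed sign and were called under either scaling, and Sdha (0.12) under neither. In Tet1 KO YAP Tg over YAP Tg, 81 were above 0 against 83, with Atp5g2 (-0.13) the named gene that changed sign, called under neither. Cox7a1 lost its call by DESeq2 (adjusted p = 0.0976). Adding near-identical libraries leaves fewer samples, with all spread from the controls.

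Whether replicate numbers pair the libraries was not settled. The 9 correlations of same-numbered libraries lay within 0.01 to 0.45, and 4 of them were over 0.1. Those of replicate 3 were 0.260, 0.266 and 0.449. Correlations of libraries with different numbers ranged from -0.330 to 0.233. With the replicate block, 2 genes were called higher and 74 lower in YAP Tg over control, 81 and 1 in Tet1 KO YAP Tg over YAP Tg, and 37 and 3 in Tet1 KO YAP Tg over control.

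Depth was ample for most genes. It limits Cox7a1, Ndufa4l2, Cox4i2, Cox6a2 and Cox6b2, and read sampling is not the limit for the differences between controls.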
